A study of Mus musculus with 10 samples.

Results

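The constitutive proteasome genes were taken from the hippocampal CAGE table as every gene whose symbol is Psma, Psmb, Psmc or Psmd followed by a digit, without the inducible subunits *Psmb8*, *Psmb9* and *Psmb10*. Of the 15900 genes listed, 35 entries met this rule. A second entry of *Psmd14* (ENSMUSG00000090649) begins at the same base of mm9 as *Psmd14* itself and had nearly the same mean CPM (144.44 against 144.84), so it was counted with it and 34 genes were left. *Psmc3ip*, a recombination factor that meets the rule only by its symbol, is not a subunit and is given apart. The other 33 genes encode 7 subunits of the 20S alpha ring, 7 of the 20S beta ring, 8 of the 19S base, 8 of the 19S lid and 3 factors that assemble the base. *Psmc2*, *Psma8* and *Psmb11* were not analysed here.

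The proteasome is the protease complex that degrades ubiquitin-tagged proteins. Its 20S core is a barrel in which outer alpha rings gate the entry and inner beta rings carry the cutting sites, and its 19S cap has a base of ATPases and ubiquitin receptors that unfold the substrate and a lid that removes the ubiquitin. Neurons use it to turn over synaptic proteins, and inflammatory cytokines exchange the cutting subunits of the beta ring for inducible ones, which gives the immunoproteasome.

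The mice were young adult male ICR mice, a strain without engineered alleles, and the whole hippocampus of each mouse gave 1 CAGE library. There were 5 groups of 2 mice. Pre-SE mice are labelled untreated, and the methods of the study state that control mice had saline in place of pilocarpine (PILO). All other mice received methyl scopolamine, then PILO to induce status epilepticus (SE), and diazepam to end the seizures. SE 6 h and SE 2 days mice were taken 6 h and 2 days after SE without levetiracetam (LEV), an antiseizure drug, and SE + LEV 6 h and SE + LEV 2 days mice at the same times after 1 oral dose or after repeated doses.

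CAGE counts the capped ends of transcripts, so a level does not grow with transcript length and CPM (tags scaled to a common library total) can be compared between genes. Library totals, inferred as the smallest totals that make the low CPM values whole tags, ran from 10540500 to 51710000 tags. Every one of the 33 genes then had at least 237 tags in each library, where counting alone gives an error of 6.5% or less. These tag numbers are inferred, and a check on recovering whole tags did not pass for most of the libraries. The markers of hippocampal neurons, astrocytes, microglia and oligodendrocytes were present in all libraries. Differences (logFC) are on the log2(CPM + 0.1) scale and were tested with limma over the 15851 genes that reached 0.1 CPM in 2 libraries or more. Genes with a Benjamini-Hochberg adjusted p of at most 0.05 were called. With 2 mice a group, an exact permutation test cannot give a p below 0.333, and the calls depend on limma pooling the spread over genes and groups.

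RefSeq promoter windows of 300 bases were taken by gene symbol for 27 of the 33 genes, with more than 1 window for *Psma6*. They hold 250 bases before and 50 after the RefSeq start in mouse build GRCm38.p6, a different build from the mm9 of the tags. The windows were searched on both strands for 4 motifs, and the matches are a description of the letters only. A gene was counted if any of its windows held the motif. The GC box GGGCGG was in 18 of the 27 genes (66.7%, against 38.2% of all genes with a window) and the CCAAT box CCAAT in 10 (37.0% against 41.1%), of which 5 belong to the alpha ring. The antioxidant response element TGACNNNGC, the kind of element through which Nfe2l1 and Nfe2l2 act on proteasome genes, was in 5 (*Psmd9*, *Psmb6*, *Psmd12*, *Psmc6* and *Psmb5*; 18.5% against 14.0%). The cyclic AMP response element TGACGTCA was in 0 of the 27, against 2.03% of all genes, and its first letters are those of the antioxidant response element. The median GC content of the 27 genes, averaged over the windows of a gene, was 55.8% (47% to 77%), against 52.7% over all windows. The windows of 4 genes on which the results below turn are shown 5′ to 3′ on the strand of the gene, with the matches to these motifs, in either orientation, in capitals. They are *Psma4* (chr9:54950609-54950908, plus strand) with 4 GC boxes, some of which overlap by a base, *Psmb4* (chr3:94886909-94887208, minus strand) with no match, *Psmb5* (chr14:54617946-54618245, minus strand) with 1 antioxidant response element, and *Psmd12* (chr11:107479278-107479577, plus strand) with 1 such element and 2 GC boxes.
Psma4: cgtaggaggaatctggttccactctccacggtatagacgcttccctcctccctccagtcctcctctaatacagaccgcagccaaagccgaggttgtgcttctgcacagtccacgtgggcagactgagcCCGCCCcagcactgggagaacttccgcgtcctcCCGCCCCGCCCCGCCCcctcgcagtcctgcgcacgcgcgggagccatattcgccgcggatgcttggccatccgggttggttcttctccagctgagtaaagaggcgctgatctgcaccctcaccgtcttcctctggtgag
Psmb4: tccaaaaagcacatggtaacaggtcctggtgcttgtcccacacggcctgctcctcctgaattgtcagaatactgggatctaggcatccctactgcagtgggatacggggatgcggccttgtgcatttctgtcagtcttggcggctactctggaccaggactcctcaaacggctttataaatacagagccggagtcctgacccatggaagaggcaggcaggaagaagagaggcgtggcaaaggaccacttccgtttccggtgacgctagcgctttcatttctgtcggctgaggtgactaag
Psmb5: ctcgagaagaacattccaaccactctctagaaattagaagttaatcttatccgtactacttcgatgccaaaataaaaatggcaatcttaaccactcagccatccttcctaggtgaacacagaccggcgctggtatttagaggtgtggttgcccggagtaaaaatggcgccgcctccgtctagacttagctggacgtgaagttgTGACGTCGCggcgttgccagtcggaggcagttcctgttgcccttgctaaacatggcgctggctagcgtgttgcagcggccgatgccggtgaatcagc
Psmd12: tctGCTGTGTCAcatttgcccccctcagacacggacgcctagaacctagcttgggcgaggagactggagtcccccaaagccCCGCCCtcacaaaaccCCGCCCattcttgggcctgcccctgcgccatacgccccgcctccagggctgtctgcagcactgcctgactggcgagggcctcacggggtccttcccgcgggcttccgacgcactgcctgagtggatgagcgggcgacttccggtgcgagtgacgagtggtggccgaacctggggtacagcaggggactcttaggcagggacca

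The proteasome genes were all well expressed, and their levels lay within a narrow band. Over the 10 libraries and 33 genes, CPM ran from 19.09 to 379.22. The highest mean levels were those of *Psmb5*, the chymotrypsin-like cutting subunit (299.33 CPM, with mice between 208.37 and 379.22), *Psmd2*, a scaffold of the base (270.72 CPM, between 204.5 and 354.01), and the ATPase gene *Psmc3* (251.18 CPM, between 156.15 and 343.65). The mice of these 3 genes overlap, so their order is not fixed by these libraries. The lowest were the assembly factors *Psmd10* (22.87 CPM) and *Psmd9* (34.42 CPM) and the ATPase gene *Psmc1* (39.42 CPM). The spread between mice of a group was small, with a median pooled SD of 0.228 on the log2 scale, against 0.333 over all genes tested. It was smallest for *Psma4* (0.075) and largest for *Psma2* (0.52). The 5 group means of a proteasome gene spanned a median of 0.43 on the log2 scale, against 0.735 over all genes. All genes tested include genes near the limit of 0.1 CPM, far below the 33 genes. Neither the SD nor the span was compared at matched levels.

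The summed level of the 33 genes was highest at 2 days after SE without LEV. It was 4690.4 and 4486.2 CPM in pre-SE libraries, 4314.4 and 4314.9 in SE 6 h libraries and 4457.2 and 4427.0 in SE + LEV 6 h libraries. It was 5419.0 and 5399.2 CPM in SE 2 days libraries and 4934.7 and 4627.7 in SE + LEV 2 days libraries. Both SE 2 days libraries were thus above the other 8 mice, and with CPM as deposited both SE 6 h libraries were below all others. The low place of the SE 6 h libraries depends on the scaling. Median-of-ratios rescaling divides by 0.934 and 0.953 in SE 6 h libraries and by 1.035 and 1.027 in pre-SE libraries. It raises the former sums and lowers the latter. The group mean was highest in SE 2 days libraries for 23 of the 33 genes (23.6% of all genes tested) and lowest in SE 6 h libraries for 14 (29.5%).

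**Figure D1:**
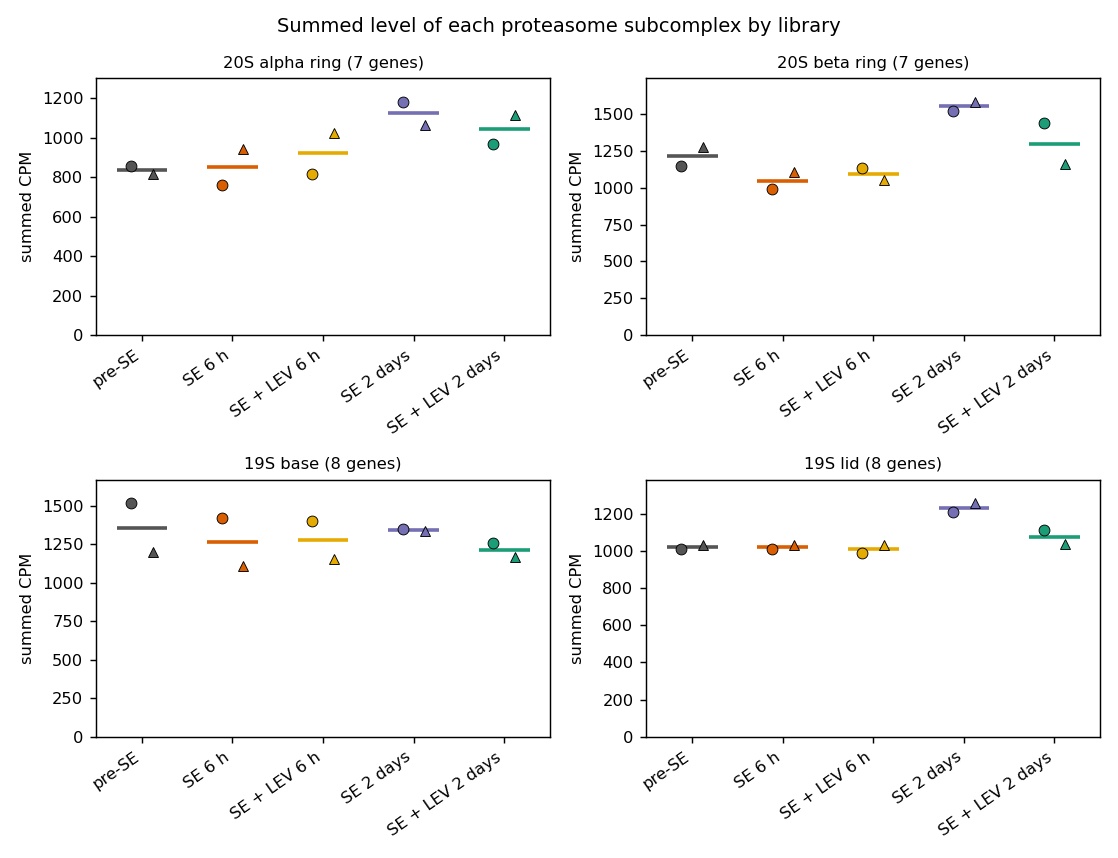
Summed CPM (y axis, from 0) of the genes of the 20S alpha ring, 20S beta ring, 19S base and 19S lid in each library, by group (x axis). Circles are replicate 1, triangles replicate 2 and bars the mean of the 2 mice. The beta ring is at 1520.4 and 1583.4 CPM in SE 2 days libraries, above all other mice, while the 19S base is between 1111.0 and 1513.4 CPM with overlapping groups.

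The subcomplexes did not all follow the same course. Both rings of the 20S core and the lid of the 19S cap were higher in SE 2 days than in pre-SE libraries, and the base was not. The alpha ring summed to 853.8 and 816.2 CPM in pre-SE libraries and to 1181.2 and 1065.0 in SE 2 days libraries, and the beta ring to 1150.7 and 1274.8 CPM and to 1520.4 and 1583.4. The lid summed to 1012.2 and 1030.7 CPM in pre-SE libraries and to 1210.0 and 1256.0 in SE 2 days libraries. The base summed to 1513.4 and 1199.6 CPM in pre-SE libraries and to 1350.9 and 1332.1 in SE 2 days libraries, which lie between the pre-SE libraries. The ratio of the summed 20S to the summed 19S level was therefore 0.794 and 0.938 in pre-SE libraries, 0.722 and 0.955 in SE 6 h libraries, 0.817 and 0.948 in SE + LEV 6 h libraries, 1.055 and 1.023 in SE 2 days libraries and 1.015 and 1.033 in SE + LEV 2 days libraries. All 4 mice at 2 days were above all 6 other mice in this ratio, which was not tested.

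Cell type markers moved over the same libraries. The summed level of 6 microglia markers was 362.5 and 430.9 CPM in pre-SE libraries, 264.5 to 286.7 in the 4 mice at 6 h and 844.4 to 1135.3 in the 4 mice at 2 days. That of 7 astrocyte markers was 2725.8 and 2590.2 CPM in pre-SE libraries, 2279.6 to 2897.2 at 6 h and 3679.8 to 5088.8 at 2 days. In SE 2 days against pre-SE libraries the median logFC of these 7 was −0.73, with estimates from −0.98 to 3.60. Only *Gfap* and *Aqp4* were called, both higher, so the summed rise does not hold for most of the list. The summed level of 8 neuron markers fell, with 9163.5 and 9022 CPM in pre-SE libraries, 5696.7 to 8319 at 6 h and 4765.7 to 6005.7 at 2 days. Of 4 markers of infiltrating myeloid cells the sum was 5.8 and 5.1 CPM in pre-SE libraries and 22.3 to 76 at 2 days. The 6 endothelial markers were at 73.6 and 76 CPM in pre-SE libraries and at 98 to 175.2 in the other mice. The 6 oligodendrocyte markers summed to 4967.2 and 5400.1 CPM in pre-SE libraries and 3407.4 to 6473.2 at 6 h. They summed to 1776.9 and 2724.6 CPM in SE 2 days libraries and to 3272.8 and 4595.9 in SE + LEV 2 days libraries. Against pre-SE libraries their logFC in SE 2 days libraries ran from −1.33 to −0.375, with 0 called. With LEV at 2 days it ran from 0.244 to 1.051, with 0 called. The hemoglobin gene *Hbb-b1* was at 17.1 and 18.7 CPM in pre-SE libraries and 2.1 to 10.3 in the others. It was called lower in SE 2 days libraries (logFC −2.034). No marker was at 0 in any library. In whole tissue, more cells of a type and more RNA per cell cannot be told apart, and the part of these markers in the results was not tested.

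The libraries of SE 6 h replicate 2, SE + LEV 6 h replicate 2 and SE + LEV 2 days replicate 2 stood apart from the other 7. On the second principal component of the 33 genes, which holds 30.8% of their variance, they scored 1.12 to 1.24 and the others −0.94 to −0.10. The split was not particular to the proteasome genes. On the third component of all genes tested, with 9.84% of the variance, the same libraries scored 16.9 to 40.8 and the others −24 to −1.4. In these 3 libraries *Psma2*, *Psma5* and *Psmd14* were above all 7 other libraries, *Psmc1*, *Psmc3*, *Psmd2*, *Psmd6* and *Psmb5* were below all 7, and the other 25 genes were mixed. The summed level of 3 choroid plexus markers was 4001, 33.8 and 20.6 CPM in these libraries and 5.1 to 1687.6 CPM in the others, so it did not follow this split. On the first component of the 33 genes, with 45.4% of the variance, 3 of the 4 libraries at 2 days scored 1.09 to 1.6, while SE + LEV 2 days replicate 2 scored −0.16, below pre-SE replicate 2 (0.33). Some of the results that rest on these libraries are given below with and without them, and the others only with them.

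**Figure D2:**
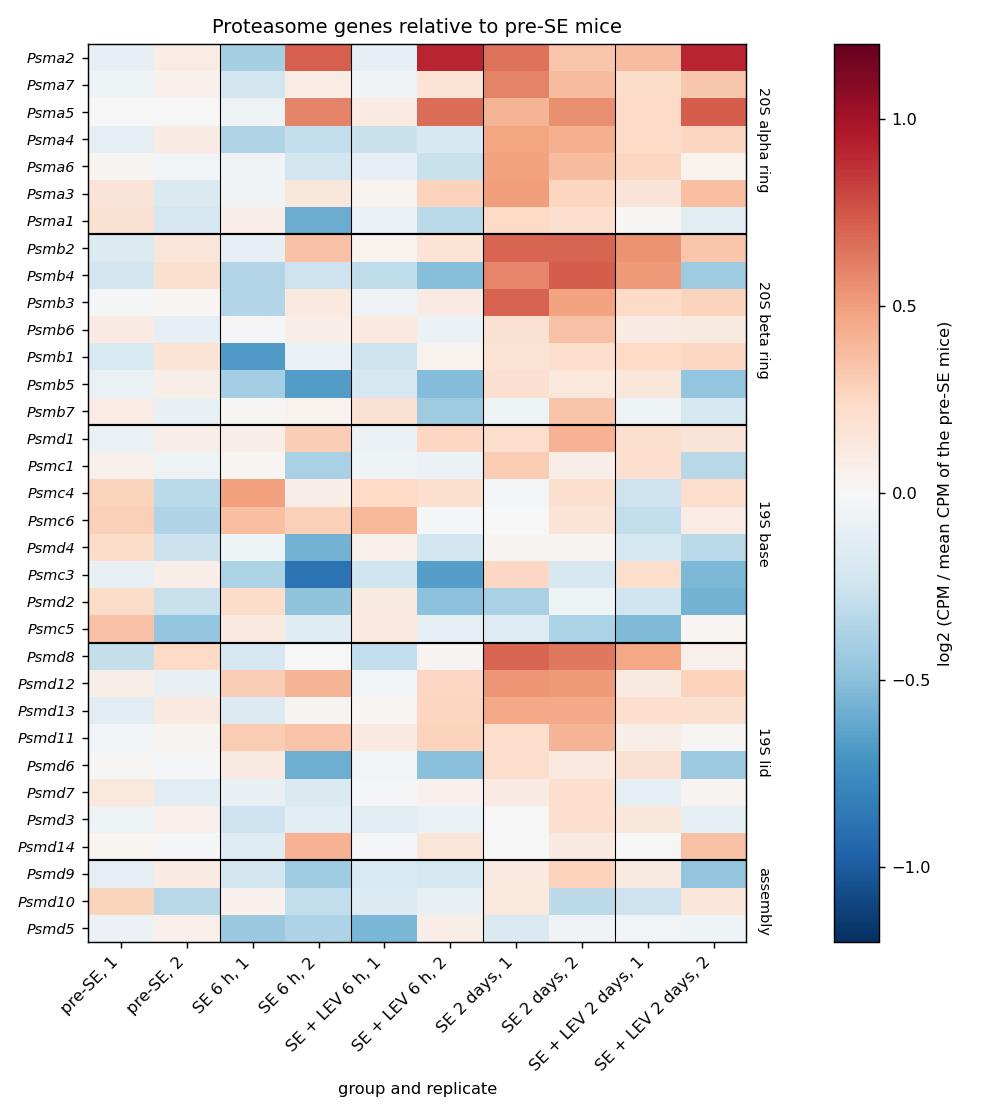
Log2 ratio of the CPM of each of the 33 genes (rows, grouped by subcomplex) in each library (columns, group and replicate) to the mean CPM of the pre-SE libraries, with red above and blue below it. The rows of the alpha and beta rings are red in both SE 2 days columns in all but *Psmb7*, and the second columns of the SE 6 h, SE + LEV 6 h and SE + LEV 2 days groups share a pattern with *Psma2* and *Psma5* high and *Psmc3* and *Psmd6* low.

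The question at 6 h was whether SE changes these genes in the acute stage. None of the 33 genes was called in SE 6 h libraries against pre-SE libraries (2.96% of all genes tested were called), and 0 had an unadjusted p under 0.05, where 17.7% of all genes did. The median logFC was −0.09, against −0.13 over all genes tested, with 13 of 33 estimates above 0 (40% of all genes). Both SE 6 h libraries were below both pre-SE libraries in 8 genes (24.2% against 31.3% of all genes tested) and above them in 3 (9.09% against 18.6%). These counts depend on the scaling. After median-of-ratios rescaling, 20 of the 33 estimates were above 0, both SE 6 h libraries were above both pre-SE libraries in 7 genes (24.3% of all genes tested) and below them in 4 (23.2% of all genes).

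The lower estimates belonged to both the core and the base. The ATPase gene *Psmc3* (ENSMUSG00000002102, chromosome 2 of mm9 from 90894166 to 90906526, overlapping *Slc39a13* on the other strand) was at 271.97 and 305.97 CPM in pre-SE libraries and at 221.5 and 156.15 in SE 6 h libraries (logFC −0.63, SE 0.307, adjusted p = 0.316). Without the library of SE 6 h replicate 2 and the others that stood apart its logFC was −0.38. *Psmb5* (ENSMUSG00000022193, chromosome 14 from 55232644 to 55236851) was at 314.77 and 350.37 CPM in pre-SE libraries and at 251.04 and 208.37 in SE 6 h libraries (logFC −0.54, SE 0.252, adjusted p = 0.301). The base assembly factor *Psmd5* was at 97.57 and 106.79 CPM and then at 74.83 and 79.07 (logFC −0.41, SE 0.235, adjusted p = 0.389), and *Psma4* of the alpha ring at 63.35 and 73.18 CPM and then at 53.27 and 55.77 (logFC −0.32, SE 0.194, adjusted p = 0.416). In these 4 genes the groups did not overlap, but none of the differences passed the test. *Psmd9*, *Psmb4*, *Psmd3* and *Psma6* also had both SE 6 h libraries below both pre-SE libraries, with logFC between −0.32 and −0.13.

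With CPM as deposited, the 3 genes with both SE 6 h libraries above both pre-SE libraries were in the 19S cap, but the 7 such genes after rescaling were 3 of the 20S core, 2 of the base and 2 of the lid. The lid gene *Psmd12* was at 88.18 and 78.28 CPM in pre-SE libraries and at 102.19 and 110.59 in SE 6 h libraries (logFC 0.36, SE 0.203, adjusted p = 0.387). The lid gene *Psmd11*, a subunit that joins the lid to the base, was at 108.7 and 113.48 CPM and then at 137.05 and 140.46 (logFC 0.32, SE 0.193, adjusted p = 0.413). The base scaffold gene *Psmd1* was at 142.02 and 158.23 CPM and then at 158.89 and 183.84 (logFC 0.19, SE 0.211, adjusted p = 0.676). The wide intervals leave room for changes of either sign in all 3, with 95% limits of −0.10 and 0.81 for *Psmd12*. *Psma2* was at 94.59 and 205.9 CPM in SE 6 h libraries, on both sides of the pre-SE libraries (116.91 and 133.03).

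At 2 days the pattern was of small, mostly higher estimates in the core particle. None of the 33 genes was called in SE 2 days libraries against pre-SE libraries, where 5.66% of all genes were called, but 8 were higher at an unadjusted p under 0.05 (24.2% against 12.5% of all genes tested) and 0 were lower. Of the 33 estimates 29 were above 0 (47.2% of all genes), and the median logFC was 0.20, against −0.03 over all genes tested. Both SE 2 days libraries were above both pre-SE libraries in 21 genes (63.6% against 26.3% of all genes tested) and below them in 0 (25.6% of all genes). Taken 1 at a time, SE 2 days replicate 1 was above both pre-SE libraries in 22 genes and replicate 2 in 25, against 37.2% and 36.4% of all genes.

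**Figure D3:**
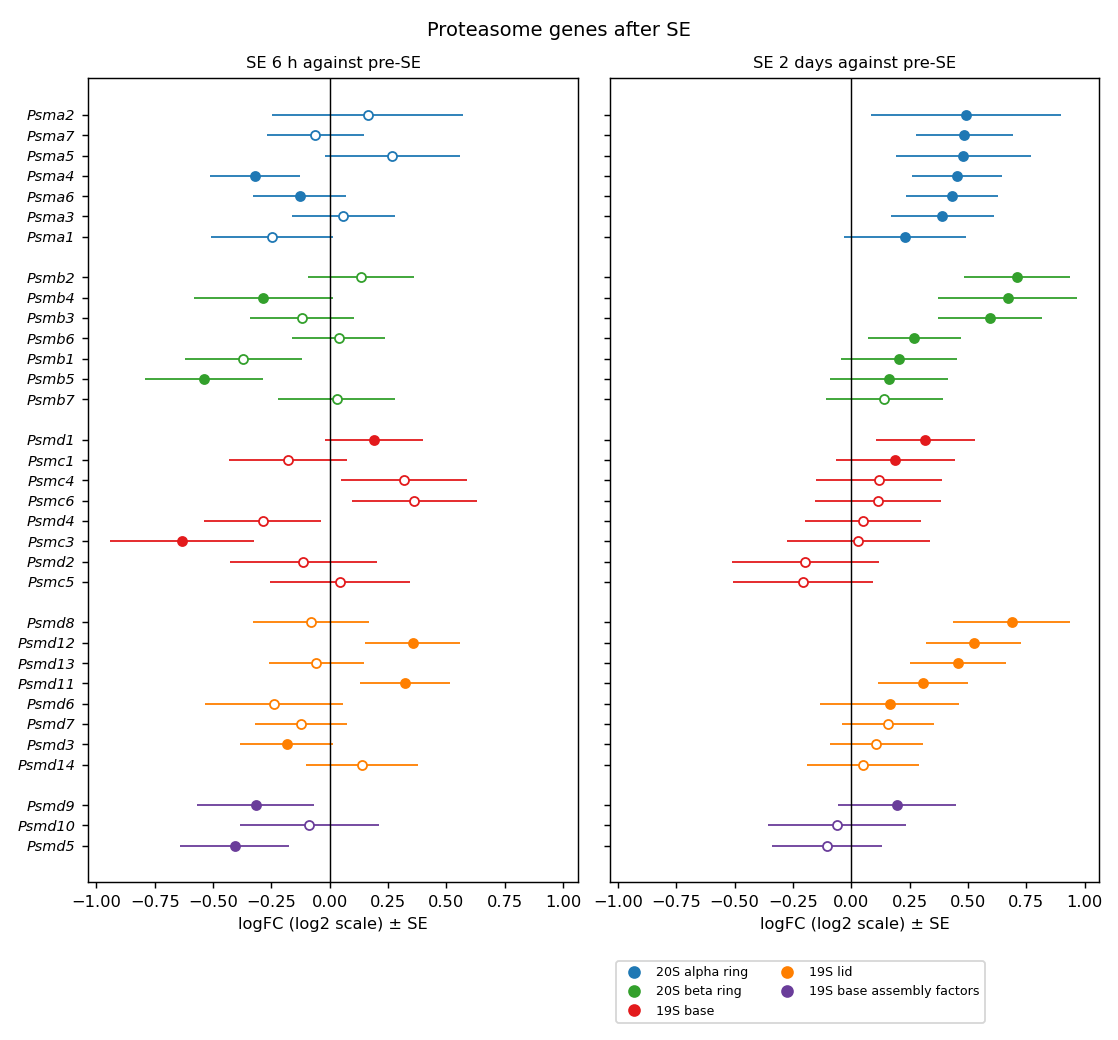
LogFC of the 33 genes (x axis, log2 scale, bars ± SE from limma) in SE 6 h libraries (left) and SE 2 days libraries (right) against pre-SE libraries, coloured by subcomplex. Filled points mark genes whose groups of 2 mice do not overlap. All 14 genes of the 20S core lie above 0 at 2 days, with a median of 0.45 in the alpha ring and 0.27 in the beta ring, and the 8 genes of the 19S base lie around 0.08.

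In the alpha ring, which gates the core, all 7 genes had both SE 2 days libraries above both pre-SE libraries, and their logFC ran from 0.23 to 0.49 with a median of 0.45. *Psma4* (ENSMUSG00000032301, chromosome 9 of mm9 from 54798597 to 54805837) was at 94.8 and 91.8 CPM in SE 2 days libraries (logFC 0.45, SE 0.194, adjusted p = 0.228) and *Psma7* at 223.87 and 192.96 CPM, after 143.61 and 153.6 in pre-SE libraries (logFC 0.49, SE 0.209, adjusted p = 0.231). *Psma6* was at 94.94 and 91.2 CPM in pre-SE libraries and at 130.25 and 121.08 in SE 2 days libraries (logFC 0.43, SE 0.199, adjusted p = 0.262). The estimate of *Psma2* was as high, at 0.49, but with an SE of 0.408, and the start of *Psma5* (logFC 0.48) lies under *1700010K24Rik* on the other strand, so that tags of both genes may be mixed if strand was ignored in counting.

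In the beta ring the highest estimates were those of 3 structural subunits. *Psmb2* (ENSMUSG00000028837, chromosome 4 of mm9 from 126354874 to 126386958, with no other gene over it) was at 116.22 and 143.63 CPM in pre-SE libraries and at 211.32 and 211.35 in SE 2 days libraries, a logFC of 0.71 (SE 0.227, unadjusted p = 0.0105, adjusted p = 0.108). *Psmb4* (ENSMUSG00000005779, chromosome 3 from 94688015 to 94690883, also clear of other genes) was at 154.64 and 206.63 CPM and then at 271.02 and 298.56 (logFC 0.67, SE 0.298, adjusted p = 0.246), and *Psmb3* at 63.6 and 65.69 CPM and then at 105.49 and 90.37 (logFC 0.59, SE 0.223, adjusted p = 0.168). These 3 genes had both SE 2 days libraries well above both pre-SE libraries, and *Psmb2* had the smallest adjusted p of the 33 genes in this comparison. The cutting subunits had a logFC of 0.16 (*Psmb5*, SE 0.252), 0.27 (*Psmb6*, caspase-like, SE 0.2) and 0.14 (*Psmb7*, trypsin-like, SE 0.25), and the groups overlapped in *Psmb7*. The structural subunit *Psmb1* had a logFC of 0.20. The differences between these genes were not tested.

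In the lid all 8 estimates were above 0, with a median of 0.24, and 5 genes had both SE 2 days libraries above both pre-SE libraries. *Psmd8* (ENSMUSG00000030591, chromosome 7 of mm9 from 29959207 to 29965692) was at 89.6 and 128.68 CPM in pre-SE libraries and at 176.64 and 169.46 in SE 2 days libraries (logFC 0.69, SE 0.25, adjusted p = 0.155). Its logFC was 0.43 without pre-SE replicate 1 and 0.95 without pre-SE replicate 2. *Psmd12* was at 120.2 and 118.98 CPM in SE 2 days libraries (logFC 0.53, SE 0.203, adjusted p = 0.181) and *Psmd13* at 95.53 and 95.76 CPM, after 63.97 and 75.86 in pre-SE libraries (logFC 0.46, SE 0.205, adjusted p = 0.252). *Psmd13* shares its start with *Sirt3* on the other strand, with the same limit. The deubiquitinase gene *Psmd14* (logFC 0.05, SE 0.24) and its partner *Psmd7* (0.16, SE 0.198) had overlapping groups, so that the highest lid estimates were those of scaffold subunits.

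The base had small differences at 2 days. Its median logFC was 0.08, and both SE 2 days libraries were above both pre-SE libraries in 2 of 8 genes, *Psmd1* (logFC 0.32, SE 0.211) and *Psmc1* (0.19, SE 0.255). *Psmc5* was at 309.77 and 176.25 CPM in pre-SE libraries and at 218.69 and 187.32 in SE 2 days libraries (logFC −0.21, SE 0.301), and *Psmd2* at 354.01 and 252.98 CPM and then at 232.35 and 293.4 (logFC −0.20, SE 0.315). The pre-SE libraries of these genes were far apart from each other, and a logFC between −0.88 and 0.46 is within the 95% limits for *Psmc5*. The ubiquitin receptor gene *Psmd4* was at 168.16 and 167.93 CPM in SE 2 days libraries, between the pre-SE libraries (191.92 and 137.22). Of the assembly factors, *Psmd9* had a logFC of 0.20 and *Psmd5* and *Psmd10* of −0.10 and −0.06.

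The size of the differences has to be read against what the test called. Among the 7331 genes whose mean CPM lay in the range of the 33 genes, 237 were called in this comparison and the smallest logFC called was 0.78 in size, above all 33 estimates. The median SE of the 33 genes was 0.25. SE 2 days and pre-SE libraries do not include the libraries that stood apart, and without those libraries the 33 logFC had the same median (0.20) and the smallest adjusted p was 0.137.

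**Figure D4:**
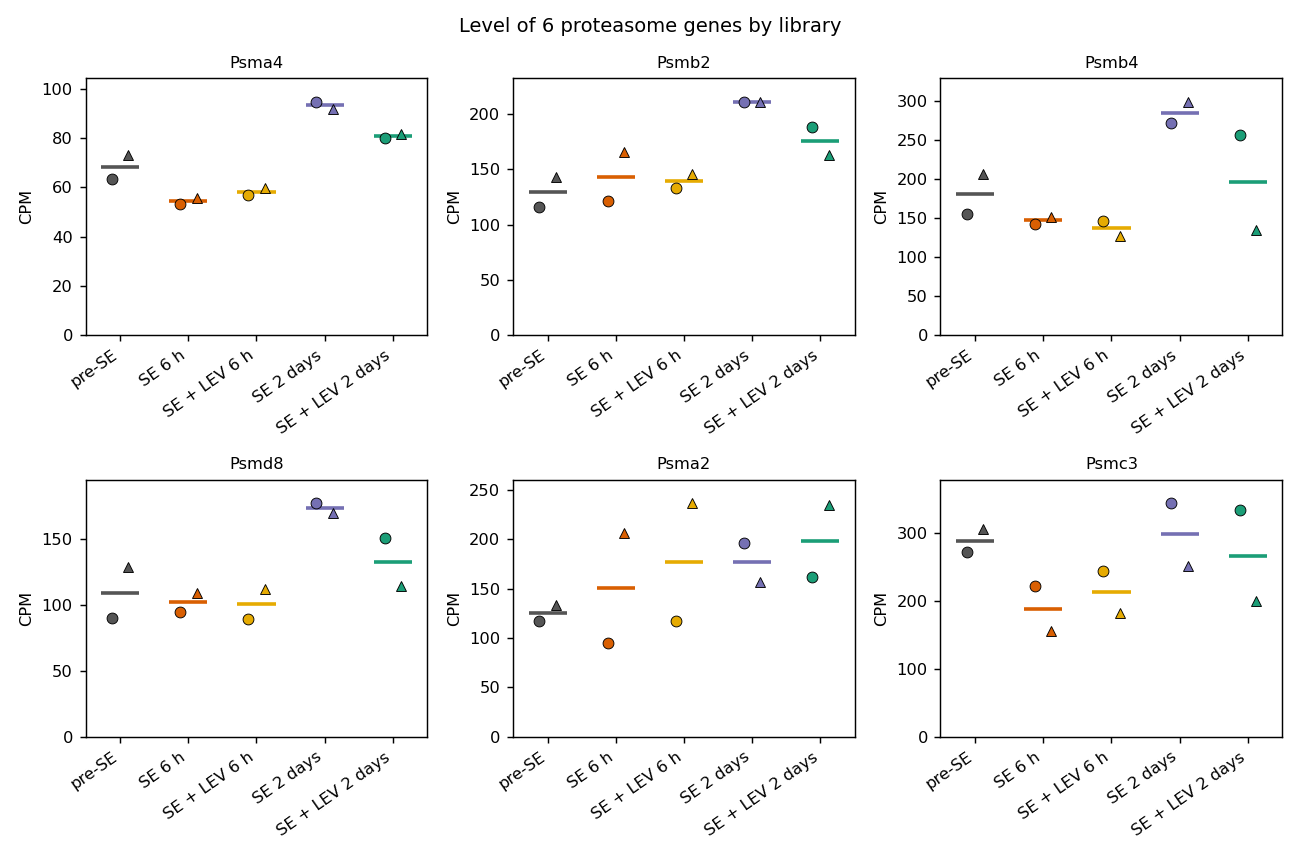
CPM (y axis, from 0) of *Psma4*, *Psmb2*, *Psmb4*, *Psmd8*, *Psma2* and *Psmc3* in each library by group (x axis), with circles for replicate 1, triangles for replicate 2 and bars for the mean of the 2 mice. *Psma4* is at 91.8 to 94.8 CPM in SE 2 days libraries and at 53.27 to 59.58 in the 4 mice at 6 h, and *Psma2* shows the gap between replicate 1 and replicate 2 at 6 h.

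The comparison of 2 days with 6 h after SE gave the largest median of the comparisons run. In SE 2 days libraries against SE 6 h libraries the median logFC of the 33 genes was 0.33, against 0.09 over all genes tested. Of the 33 estimates 27 were above 0 (55.7% of all genes). Both SE 2 days libraries were above both SE 6 h libraries in 22 genes (66.7% against 31% of all genes tested) and below them in 2, *Psmc5* and *Psmc6* (6.06% against 20.1%). The 33 genes included 10 that were higher with an unadjusted p below 0.05 (30.3% against 12.8%). Again 0 genes were called, with 4.25% of all genes called. The nearest to a call was *Psma4*, whose mice were all below the pre-SE libraries at 6 h and all above them at 2 days (logFC 0.77, SE 0.194, 95% limits 0.34 and 1.21, adjusted p = 0.0554). It had an adjusted p of 0.0452 with a pseudocount of 1. *Psmb4* had the largest logFC (0.95, SE 0.298, adjusted p = 0.111), from 141.89 and 151.63 CPM to 271.02 and 298.56. Its adjusted p was 0.0406 without SE + LEV 2 days replicate 1 and 0.04 without SE + LEV 2 days replicate 2, libraries that enter only through the shared spread. *Psmd8* (logFC 0.77, SE 0.25), *Psmb3* (0.71, SE 0.223) and *Psmb5* (0.70, SE 0.252) came next, and *Psmc5* and *Psmc6* had a logFC of −0.25 each. By role the median logFC was 0.48 in the alpha ring, 0.57 in the beta ring, 0.29 in the lid and 0.02 in the base. This comparison and those with pre-SE libraries share their mice.

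The comparisons with SE mice given no drug ask what LEV does to these genes. At 6 h the estimates lay on both sides of 0. In SE + LEV 6 h libraries against SE 6 h libraries 0 genes were called (0.0126% of all genes tested) and 0 had an unadjusted p under 0.05 (4.58% of all genes). The median logFC was 0.06, against 0.04 over all genes tested, and the 33 estimates ran from −0.25 to 0.28. Both SE + LEV 6 h libraries were above both SE 6 h libraries in 3 genes (9.09% against 16.1% of all genes tested) and below them in 2 (6.06% against 13.4%).

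Those 5 genes had small differences. *Psma4* was at 56.72 and 59.58 CPM in SE + LEV 6 h libraries, just above the SE 6 h libraries and below the pre-SE libraries (logFC 0.09, SE 0.194). *Psmd7* had a logFC of 0.15 (SE 0.198) and *Psmd9* of 0.13 (SE 0.251). *Psmd12* was at 81.24 and 98.76 CPM with LEV, below both SE 6 h libraries (logFC −0.25, SE 0.203), and *Psmd11* at 119.58 and 134.62 CPM (logFC −0.13, SE 0.193). For *Psmd12* the 95% limits were −0.70 and 0.21. The adjusted p was 1.0 for all 33 genes, which does not show that the groups were alike.

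At 2 days most estimates were below 0 with LEV. In SE + LEV 2 days libraries against SE 2 days libraries the median logFC was −0.21, against 0.04 over all genes tested. Of the 33 estimates 6 were above 0 (55.4% of all genes). Both SE + LEV 2 days libraries were below both SE 2 days libraries in 16 genes (48.5% against 12.2% of all genes tested) and above them in 1, *Psmb1* (3.03% against 15.2%), and after rescaling in 0. Yet 0 genes were called (0% of all genes tested), and 0 had an unadjusted p under 0.05 (2.7%). Each mouse given LEV showed the direction, with replicate 1 below both SE 2 days libraries in 21 genes and replicate 2 in 23, against 28.4% and 32.2% of all genes. The SE 2 days libraries enter both this comparison and that with pre-SE libraries, so that a high value there also lowers the estimate with LEV.

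**Figure D5:**
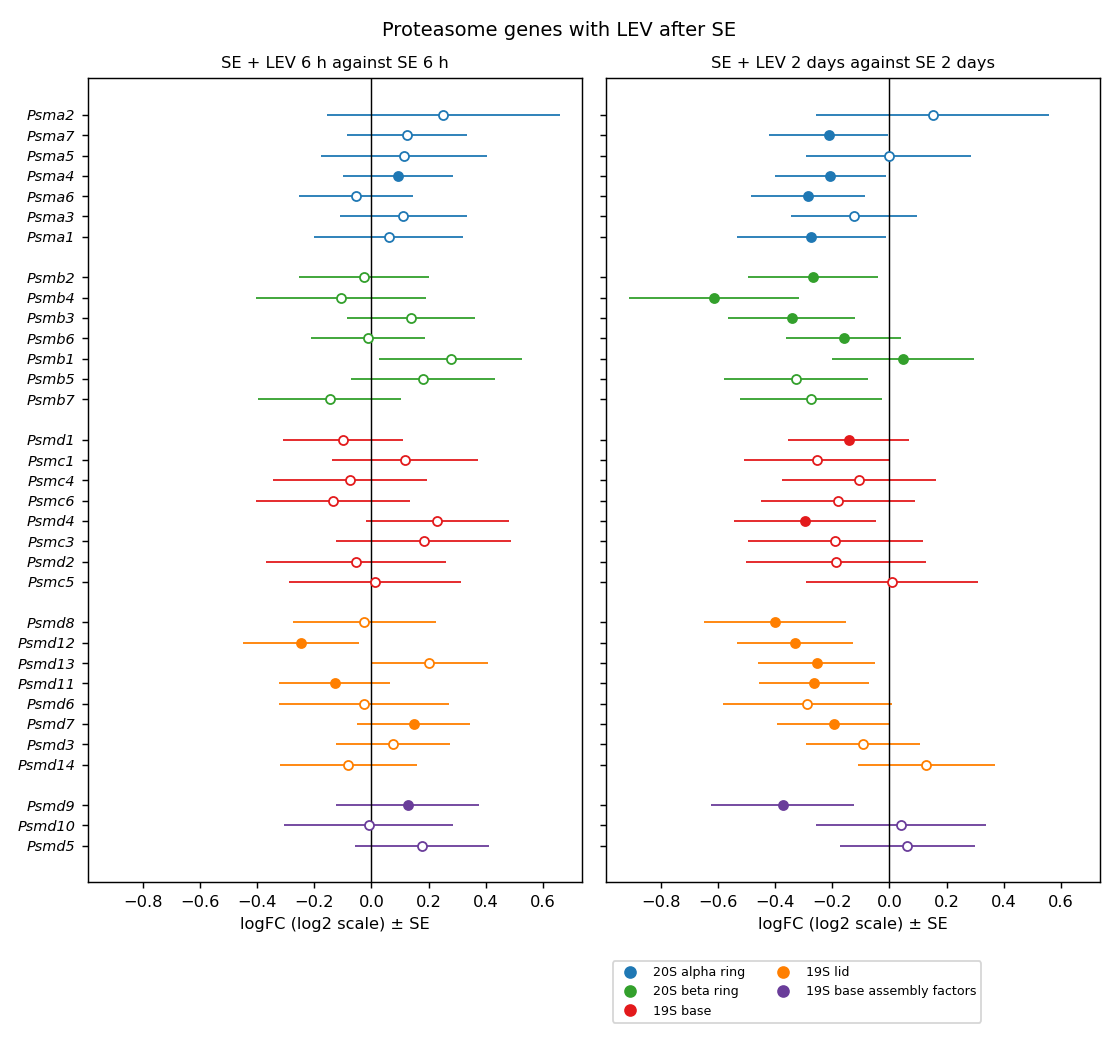
LogFC of the 33 genes (x axis, log2 scale, bars ± SE from limma) with LEV against SE without LEV at 6 h (left) and 2 days (right), coloured by subcomplex and ordered as in the plot of SE against pre-SE libraries. Filled points mark groups that do not overlap. The estimates lie between −0.25 and 0.28 at 6 h and between −0.62 and 0.15 at 2 days, where 27 of 33 are below 0.

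*Psmb4* had the largest difference with LEV at 2 days, and it rested on 1 library. It was at 256.57 CPM in SE + LEV 2 days replicate 1, near the SE 2 days libraries, and at 134.35 CPM in replicate 2 (logFC −0.62, SE 0.298, unadjusted p = 0.0654). Without replicate 2 and the other libraries that stood apart the logFC was −0.15. *Psmd8* was at 150.29 and 114.18 CPM with LEV (logFC −0.40, SE 0.25, and −0.20 without those libraries), and *Psmd9* at 39.27 and 26.29 CPM, after 39.43 and 44.04 without LEV (logFC −0.37, SE 0.251, and −0.085 without those libraries). Both mice given LEV were close together in *Psmb3* (76.29 and 77.71 CPM, logFC −0.34, SE 0.223), in *Psma4* (79.9 and 81.69 CPM, logFC −0.21, SE 0.194) and in *Psmd13* (80.38 and 79.93 CPM, logFC −0.26, SE 0.205), and lay between the pre-SE and the SE 2 days libraries in all 3. *Psmb2* was at 188.72 and 163.18 CPM, also between them (logFC −0.27, SE 0.227). In *Psma2* and *Psma5* SE + LEV 2 days replicate 2 was above both SE 2 days libraries (234.81 and 168.4 CPM) and replicate 1 was within or below them (162.06 and 118.72 CPM). Without the libraries that stood apart the median logFC of the 33 genes was −0.18.

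SE + LEV 2 days libraries were also compared with pre-SE libraries. The median logFC was 0.04, against 0.02 over all genes tested. Of the 33 genes 0 were called (2.85% of all genes tested), and 0 had an unadjusted p under 0.05 (10.8%). Both mice given LEV were above both pre-SE libraries in 12 genes, 9 of them in the 20S core (36.4% against 22.6% of all genes tested), and below them in 0 (17.5% of all genes). After rescaling they were above in 10 genes, against 21.2% of all genes. The median was 0.14 without the libraries that stood apart, of which SE + LEV 2 days replicate 2 is one. In SE + LEV 6 h libraries the median logFC against pre-SE libraries was −0.06 (0.01 after rescaling), and 0 genes were called (0.322% of all genes tested) or had an unadjusted p under 0.05 (9.38%). From SE + LEV 6 h to SE + LEV 2 days libraries the median logFC was 0.10, against 0.09 over all genes tested. Of the 33 estimates 24 were above 0 (57.6% of all genes), and 0 genes were called (2.14% of all genes tested). Only *Psma4* was higher at an unadjusted p under 0.05 (3.03% against 9.22% of all genes). The difference between the LEV effects at 2 days and at 6 h had a median of −0.23, against 0.005 over all genes tested. It was below 0 in 31 genes and above 0 in 2, where 50.5% of all genes were above 0. Of the 33 genes 0 were called (0% of all genes tested), with 0 members at an unadjusted p under 0.05 (2.38% of all genes). *Psma4*, *Psmd7* and *Psmd9*, which were above the SE mice with LEV at 6 h and below them at 2 days, had differences of −0.30, −0.34 and −0.50 with adjusted p of 1.0.

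*Psmc3ip* was low, at 3.09 to 8.78 CPM. It was at 3.69 and 6.09 CPM in pre-SE libraries and at 7.17 and 7.55 in SE 2 days libraries (logFC 0.62, SE 0.373, adjusted p = 0.405), and its SE + LEV 6 h libraries were below its SE 6 h libraries (logFC −0.34, SE 0.373). Its tags were few, and none of its differences passed the test.

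The inducible subunits that replace the cutting subunits were called where their constitutive partners were not. *Psmb8*, which replaces *Psmb5*, was at 2.1 and 3.27 CPM in pre-SE libraries and at 57.54 and 35.2 in SE 2 days libraries (logFC 4.05, SE 0.434, adjusted p = 0.0013). *Psmb9*, which replaces *Psmb6*, had a logFC of 3.16 (adjusted p = 0.00228), and *Psmb10*, which replaces *Psmb7*, of 1.25 (adjusted p = 0.0326, and 0.0887 to 0.186 without any 1 mouse of either group). In CPM, *Psmb5* remained far above *Psmb8* at 2 days (379.22 and 363.33 in SE 2 days libraries), as *Psmb6* did above *Psmb9*. In SE 6 h libraries against pre-SE libraries, and with LEV at either time, 0 of the 3 inducible genes were called.

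Of the other genes of the pathway, a few were called. Among 10 substrate delivery genes the chaperone partner *Bag3* rose at 6 h (logFC 2.53, adjusted p = 0.0113, and up to 0.0828 with a mouse left out) and at 2 days (2.14, adjusted p = 0.015, and up to 0.156). Of 11 transcription factors of proteasome genes and genes of their processing, *Stat3* rose at 2 days (2.18, adjusted p = 0.0056, and 0.0729 without SE 2 days replicate 2), and *Nfe2l1* and *Nfe2l2* were not called at either time. No gene was called in these 4 comparisons among 5 activators and inhibitors (where *Psme4* had the largest logFC, 0.85 at 6 h), 5 assembly chaperones of the 20S core (*Psmg2*, −0.89 at 6 h), 10 other subunits and associated factors (*Txnl1*, 0.63 at 6 h) or 2 ubiquitin-activating enzymes (*Uba6*, 0.33 at 6 h). With LEV, 0 genes of all these lists were called at 6 h or 2 days. The cap genes *Psme1* and *Psme2*, which are named after their values were seen, rose from SE 6 h to SE 2 days libraries (logFC 1.65 and 1.15, adjusted p = 0.0358 and 0.0232). These calls were lost without any 1 of the 4 mice compared.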

How the data were processed

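CAGE libraries from 10 hippocampi were used. Per the labels and the methods of the study, the authors aligned reads to the mm9 build (BWA 0.7.17, then HISAT2 2.0.5 for what was left), made tag clusters in RECLU, used bedtools 2.12.0 and edgeR 3.22.5, discarded clusters under 0.1 CPM and deposited CPM per gene and mouse. How clusters were summed to genes and whether strand was used are not given in the sources used here. The members, the gene lists and the tests were chosen with earlier results of these data known.

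All 10 libraries were fitted together in limma 3.58.1 (R 4.3.3) on log2(CPM + 0.1), with 5 group means, a mean-variance trend and two-sided tests, for 9 comparisons, and the procedure was tested on simulated data. With no counts in the file, no count model was used. Members were named where they were called, where they were among the 4 largest logFC in each direction with groups that did not overlap, or where they had the 3 highest or 3 lowest mean levels. Others are named, by role, after their values were seen, as are the 6 genes plotted one by one and the *Psma4* and *Psmb4* results from 6 h to 2 days. From the other lists, the genes called or the largest logFC were named, and some items under this rule are left out.

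Gene positions come from GENCODE for mm9, matched by identifier for all 15900 genes, and promoter windows from RefSeq. As alternatives, the pseudocount was set to 0.01 or 1, the filter was dropped or raised to 1 CPM in 2 libraries, values were rescaled by median ratios, a replicate block was added, the variance trend was removed, the fit was limited to the 2 groups in question, and each mouse was left out in turn. A fit without the 3 libraries that stood apart and a crossed block were added after the data were seen. Figures were drawn with Python 3.11.15, numpy 2.4.6, pandas 2.3.3 and matplotlib 3.10.9.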

Additional observations from a re-analysis of the deposited data

How the results depend on the processing

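Over 20 alternatives, the number of the 33 genes called stayed at 0 in each direction in 8 of the 9 comparisons. In SE 2 days mice against SE 6 h mice it was 1 higher with a pseudocount of 1 (*Psma4*, adjusted p = 0.0452), 0 to 1 with each mouse left out (*Psmb4* where a SE + LEV 2 days mouse was left out) and 1 with the crossed block (*Psma4*, adjusted p = 0.0416). In SE 2 days mice against pre-SE mice the median logFC ranged from 0.20 to 0.29 and the smallest adjusted p from 0.0507 (crossed block) to 0.416. With LEV at 2 days the median ranged from −0.26 to −0.18. Median-of-ratios rescaling moved the median logFC of all genes at 6 h from −0.13 to −0.01, and that of the 33 genes from −0.09 to 0.04, so the sign at 6 h depends on the scaling. *Psmb1* with LEV at 2 days went from 0.05 to −0.003. After rescaling, 14 of 14 estimates of the 20S core were above 0 at 2 days against pre-SE mice, and in 12 both SE 2 days libraries were above both pre-SE libraries, against 27.2% of all genes. From 6 h to 2 days the median ranged from 0.23 (rescaling) to 0.43 (without SE 2 days replicate 2), and for LEV mice from 0 (rescaling) to 0.22. The numbers of all genes called ranged from 111 to 596 (469 in the fit reported) in SE 6 h mice and from 249 to 1363 (897) in SE 2 days mice against pre-SE mice, and from 162 to 956 (674) from 6 h to 2 days. They ranged from 0 to 88 (51) and from 63 to 638 (451) with LEV at 6 h and 2 days against pre-SE mice, from 42 to 482 (339) between the LEV groups, and from 0 to 10 (2) and 0 to 2 (0) for LEV against SE at 6 h and 2 days.

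Same-numbered mice are different animals and share only a number. With the replicate block 0 of the 33 genes were called in each of the 9 comparisons. The log2 difference between replicate 2 and replicate 1 was taken in each group and correlated between groups across the 33 genes. This correlation was 0.5 between SE 6 h and pre-SE mice and 0.77 between SE + LEV 6 h and SE 6 h mice. It was −0.49 between SE + LEV 2 days and pre-SE mice. With the numbers crossed in the SE + LEV 2 days group, 1 of the 33 genes was called in 1 comparison, as given above. The planned count tests with edgeR and DESeq2 were not run. The values are CPM and not counts, and a check on recovering whole tags did not pass for most of the libraries. The tag numbers given above are inferred from the low CPM values. Leaving out a mouse leaves its group with 1 library, which is then assumed to vary like the others.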
